A study of Homo sapiens with 8 samples.

Results

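Interferon-stimulated genes are the genes that cells switch on in response to interferons, and 40 of them were followed here in the human neuroblastoma line SK-N-SH. The rule names the 40 by symbol and uses no measured value, but the list was drawn up with earlier results of these data known, so its counts come from no blind choice. All 40 were found by their GENCODE identifiers among the 60659 genes of the count table. Ribosomal RNA was removed from total RNA, and the rest was sequenced for 4 groups with 2 libraries each, which the sample labels call biological replicates, and all groups had received 10 μM all-trans retinoic acid (ATRA) for 24 h. The overexpression experiment set cells carrying FLAG-tagged ZMYND8 (ZMYND8 OE), a chromatin reader expressed from a doxycycline-inducible lentivirus after Geneticin selection, against parental cells, with doxycycline (Dox) in both groups. The knockdown experiment set cells with lentiviral shRNA against ZMYND8 (ZMYND8 KD) against KD control cells, both without Dox in their labels. Whether the transduced cells were pools or single clones, and what construct the KD control cells carried, is not given in the sources used here. No vector control is named for the overexpression experiment, so ZMYND8 cannot be told apart from virus and selection there. Parental and KD control cells belong to different experiments and differ in Dox by their labels, and may differ in virus, and these cannot be told apart in a comparison between the control groups.

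Type I interferons bind a receptor whose kinases JAK1 and TYK2 phosphorylate STAT proteins. STAT2 with a partner STAT and IRF9 forms the complex ISGF3, which binds the interferon-stimulated response element (ISRE) in the promoters of these genes, while IRF1 and IRF7 are further transcription factors of the response. The products sense viral RNA (IFIH1, DDX60), bind or degrade it (the IFIT and OAS families), block viral entry, assembly or release (the IFITM and MX families, RSAD2, BST2), or tag proteins with ISG15 (HERC5) and remove the tag (USP18). Many of these genes are also expressed at a low level without added interferon. Neuroblastoma lines such as SK-N-SH hold cells of an adrenergic and a mesenchymal kind, and the mesenchymal kind is known for higher activity of innate immune genes.

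For the promoters, the window from 250 bases before to 50 bases after each annotated start was taken from RefSeq (GRCh38.p14), which gave windows for 32 of the 40 genes. IRF7, IFIT2, IFITM2, MX2, OAS2, OASL, USP18 and TRIM22 had no entry. The ISRE core was searched as GAAANNGAAA on both strands, with overlapping matches kept. A gene was counted when any of its windows held a match. By that search 22 of the 32 genes (68.8%) held the core, against 1195 of 27305 genes with a window (4.38%). The core of the gamma-activated site (GAS), searched as TTCNNNGAA, was present in 11 of the 32 (34.4%) and in 2560 of all genes with a window (9.38%). A match describes the letters only and not the binding of a factor, and no match says only that these letters are not in the window. The 250 bases before the start are printed below for 4 genes on which the results turn, with the ISRE core in capitals. IFIT3 and IFI44L were lower in ZMYND8 overexpression, and BST2 and OAS1 were higher. OAS1 had no match to the ISRE core as searched, and its capitals mark the GAS core. Near its end the OAS1 window reads gaaacgaaa, a pair of GAAA with closer spacing than the search allowed. A core on the opposite strand reads TTTC first.
IFIT3 (chr10:89327747-89327996, plus strand): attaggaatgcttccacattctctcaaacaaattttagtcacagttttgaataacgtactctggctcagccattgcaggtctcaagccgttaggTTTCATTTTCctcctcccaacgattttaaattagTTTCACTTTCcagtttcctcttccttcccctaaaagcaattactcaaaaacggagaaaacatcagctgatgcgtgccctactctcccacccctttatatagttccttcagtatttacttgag
IFI44L (chr1:78620198-78620447, plus strand): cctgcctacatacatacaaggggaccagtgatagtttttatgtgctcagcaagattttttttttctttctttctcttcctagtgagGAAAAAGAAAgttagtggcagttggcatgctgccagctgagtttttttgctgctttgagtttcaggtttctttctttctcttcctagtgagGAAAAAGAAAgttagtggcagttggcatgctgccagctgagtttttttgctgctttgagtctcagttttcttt
BST2 (chr19:17405631-17405880, minus strand): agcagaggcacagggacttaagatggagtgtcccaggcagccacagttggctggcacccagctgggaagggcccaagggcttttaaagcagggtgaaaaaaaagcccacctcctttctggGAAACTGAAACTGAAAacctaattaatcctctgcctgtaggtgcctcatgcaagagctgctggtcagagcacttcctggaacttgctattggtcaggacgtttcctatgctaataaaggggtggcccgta
OAS1 (chr12:112906712-112906961, plus strand): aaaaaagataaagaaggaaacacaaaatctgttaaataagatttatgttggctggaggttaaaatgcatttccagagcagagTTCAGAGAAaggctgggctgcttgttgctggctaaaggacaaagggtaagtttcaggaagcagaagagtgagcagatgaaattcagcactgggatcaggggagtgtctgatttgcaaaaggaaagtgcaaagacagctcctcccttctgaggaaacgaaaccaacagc

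The ISRE cores of 7 genes with different responses are shown with 4 bases on either side, each read on the strand where the core starts with GAAA, so that their letters can be compared.
ISG15 (chr1:1013390-1013399): aaggGAAACCGAAActga
IFIT1 (chr10:89392507-89392516): agggGAAAGTGAAActaa
IFIT3 (chr10:89327875-89327884): actgGAAAGTGAAActaa
MX1 (chr21:41420569-41420578): aaatGAAACCGAAActga
OAS3 (chr12:112938462-112938471): gcggGAAAACGAAAccag
DDX60 (chr4:168318796-168318805): aaagGAAACCGAAActcc
IFITM3 (chr11:320886-320895): ttgaGAAACCGAAActac
The coordinates are those of the 10-base core. The GAAA pair is the fixed part of the search. The core printed for IFIT1 is the same as that for IFIT3, and ISG15, MX1, DDX60 and IFITM3 share another. IFIT1 also holds that other core at a second site. In overexpression the log2 fold changes of ISG15, MX1, DDX60 and IFITM3 were -0.56, -0.24, -1.13 and -1.02, and that of MX1 did not pass the adjusted p. Cores were found in genes that fell in overexpression, such as IFIT3 and DDX60, and in genes that rose, such as OAS3 and BST2. Among the 30 genes with a window that were tested in overexpression, the 20 with the core had a median log2 fold change of -0.66 and ranged from -2.09 to 1.53. The 10 without it had a median of -0.22 and ranged from -1.96 to 1.70. These are descriptions without a test, and the ranges of both sets overlap.

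Each library held between 38316523 and 56256979 counts on genes. ZMYND8 had 73.3 and 71.5 CPM (counts scaled to the library total with TMM factors over the 8 libraries) in parental cells and 3962 and 3961 CPM in ZMYND8 OE. It had 60.1 and 61.8 CPM in KD control cells and 31.8 and 31.8 CPM in ZMYND8 KD, a log2 fold change of -0.94 (with its standard error, SE, of 0.056 and adjusted p = 2.2e-06, edgeR). Of 12 adrenergic markers, 9 had over 100 counts in every library, as did 11 of 12 mesenchymal markers, and none of 12 white blood cell markers did. Throughout, a gene was called when its Benjamini-Hochberg adjusted p (edgeR's quasi-likelihood test) was below 0.05, its absolute log2 fold change was at least 1 and its mean normalised count was above 20. "Higher" or "lower by adjusted p" means that the first of these alone was met. EPSTI1, with at most 6 counts in any library, and IFI27, with at most 10, had too few counts for every test. OAS2 and MX2 had too few for the test of the knockdown.

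The genes differed widely in level. Per transcript length, the highest over the 8 libraries was IFITM3, an entry inhibitor in endosomes, with a mean of 208 TPM (counts scaled by gene length and library total). The DNA-binding sensor IFI16 followed with 128 TPM, IFI6 with 96.2 TPM, SAMD9 with 84.5 TPM and IFITM2 with 76.2 TPM. The lowest were EPSTI1 with 0.025 TPM, IFI27 with 0.038 TPM and MX2 with 0.20 TPM. For IFI27 an alternate contig repeats 100% of the exonic 31-base sequences, so its few counts need not reflect its level. Of the 21 interferon genes listed as ligands, 16 had no count in any library and none exceeded 2 counts. The ligands were thus not detected at this depth. For some, such as IFNA4 (75.6%) and IFNA1 (68.3%), much of the exonic 31-base sequence recurs on the primary chromosomes, so reads may go uncounted. For others, such as IFNB1 and IFNG, 0% recurs.

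In ZMYND8 overexpression more of the interferon-stimulated genes were lower than higher, and the IFIT and OAS families moved in opposite directions. The part of ZMYND8 itself, apart from virus and selection, cannot be told from this comparison. Of the 38 genes tested, 10 were called lower, where 6.84% of all 20835 genes tested were, and 6 were called higher, where 11.8% of all genes were. By adjusted p alone, 21 were lower (29.1% of all genes) and 10 higher (31.7% of all genes). The median log2 fold change of the 38 was -0.54, against 0.03 over all genes. The summed level of the 40 genes was 1945 and 1976 CPM in the parental libraries and 965 and 1102 CPM in ZMYND8 OE. IFI16, PARP14, STAT2 and SAMD9 made up much of that sum, so it says little of the weakly expressed members.

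**Figure D1:**
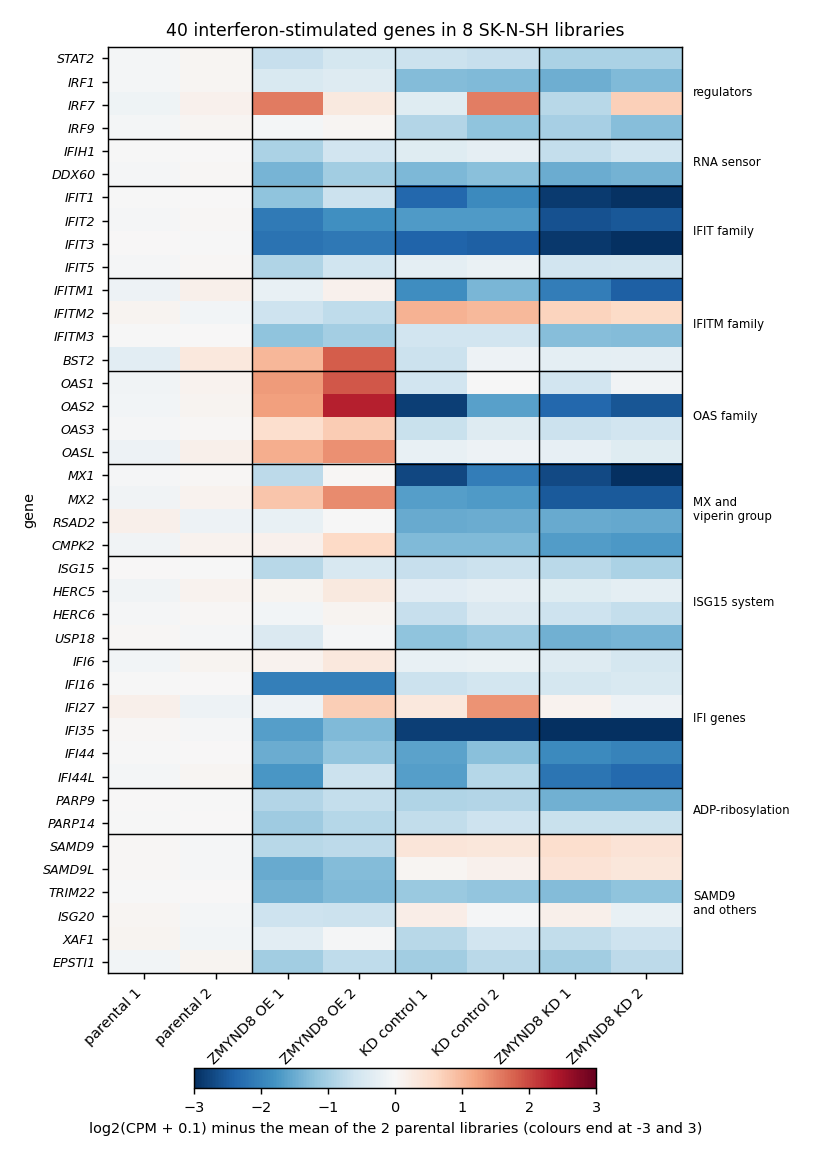
Level of each of the 40 genes (rows, grouped by role) in each of the 8 libraries (columns), as log2(CPM + 0.1) minus the mean of the 2 parental libraries, with the colour scale ending at -3 and 3. IFIT genes, IFI16 and SAMD9L are blue and OAS genes and BST2 red in ZMYND8 OE. In the 4 libraries of the knockdown experiment IFIT1, IFIT3, MX1 and IFI35 are dark blue, as are others such as IFIT2, OAS2 and MX2.

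All 4 IFIT genes, whose proteins bind foreign RNA ends and stop translation, were lower by adjusted p in ZMYND8 OE. By that measure 29.1% of all genes were lower. They lie side by side on chromosome 10 of GRCh38 from 89283694 to 89420997. IFIT3 (ENSG00000119917) had 74.4 and 74.2 CPM in parental cells and 15.9 and 16.8 CPM in ZMYND8 OE, a log2 fold change of -2.09 (SE 0.058, adjusted p = 5.18e-10, edgeR). IFIT2 (ENSG00000119922) went from 59.5 and 62.1 CPM to 13.8 and 17.0 CPM, a log2 fold change of -1.89 (SE 0.087). IFIT1, with 23.3 and 24.0 CPM against 10.2 and 15.01 CPM, had a log2 fold change of -0.83, and IFIT5 had one of -0.66. In none of the 4 genes did the groups overlap, but with 2 libraries a group this is easily met. The share of all genes without overlap was not counted.

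All 4 members of the oligoadenylate synthetase family, enzymes that sense double-stranded RNA and activate RNase L, were higher by adjusted p. By that measure 31.7% of all genes were higher. OAS1, OAS3 and OAS2 adjoin on chromosome 12 from 112906783 to 113011723, and OASL, a relative without that enzyme activity, lies apart on the same chromosome. OAS1 (ENSG00000089127) had 4.39 and 5.12 CPM in parental cells and 11.6 and 17.6 CPM in ZMYND8 OE, a log2 fold change of 1.70 (SE 0.19, adjusted p = 1.75e-05, edgeR). OAS2 (ENSG00000111335), a weakly expressed gene, had 24 and 33 counts (0.57 and 0.65 CPM) against 87 and 160 counts (1.56 and 3.47 CPM), a log2 fold change of 2.11 (SE 0.37). The OE libraries lay above both parental libraries, although they differed from each other by 2.22 times. OASL had 0.97 and 1.23 CPM against 2.44 and 3.01 CPM, a log2 fold change of 1.39 (SE 0.22). OAS3, the most abundant of the family, went from 37.2 and 38.8 CPM to 53.6 and 64.0 CPM, a log2 fold change of 0.72 that passed the adjusted p (2.19e-05, edgeR) but not the threshold on fold change.

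**Figure D2:**
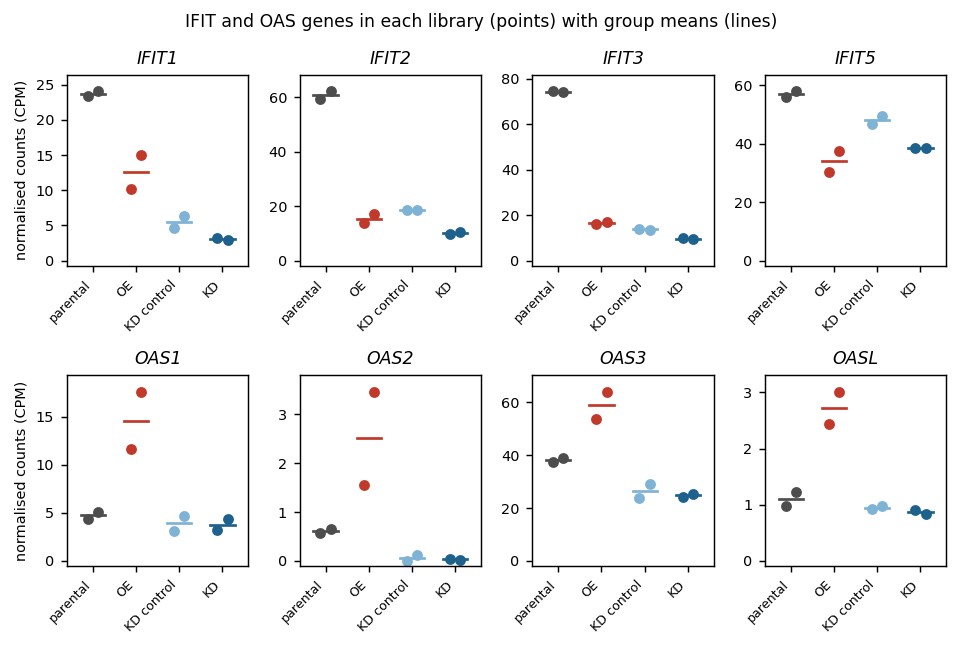
CPM (vertical axis, reaching down to 0 and with its own scale for each gene) of 4 IFIT genes (top) and 4 OAS genes (bottom) in the 4 groups, with a point for each library and a line for the mean of 2. Each IFIT gene is highest in parental cells and each OAS gene is highest in ZMYND8 OE.

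Of the transcription factors, STAT2 fell from 180.4 and 195 CPM in parental cells to 116 and 129.7 CPM in ZMYND8 OE, a log2 fold change of -0.52 (SE 0.065, adjusted p = 4.7e-05, edgeR). IRF1 fell from 100.5 and 108 CPM to 75.4 and 79.7 CPM, a log2 fold change of -0.34 (adjusted p = 0.000387, edgeR). IRF9 had 3.80 and 4.12 CPM against 3.79 and 4.14 CPM, values that overlap, and 42.2% of its exon bases are shared with a gene on the same strand. IRF7, the master factor of type I interferon induction in many cells, had 13 and 20 counts against 68 and 21 counts, with a log2 fold change of 1.35 (SE 0.45, adjusted p = 0.0245, edgeR). It was 0.46 without OE replicate 1 (adjusted p = 0.486, edgeR) and 1.19 without parental replicate 1 (adjusted p = 0.079, edgeR), and neither was called. An alternate contig of the genome repeats 98.7% of its exonic 31-base sequences and can take reads from its count.

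Of the 5 IFI genes tested, 4 were called lower (6.84% of all genes) and 1 was higher by adjusted p (31.7% of all genes). Both RNA sensors, DDX60 and IFIH1, were lower by adjusted p (29.1% of all genes), and only DDX60 was called. IFI16 (ENSG00000163565) went from 300.2 and 304 CPM to 72.9 and 73.1 CPM, a log2 fold change of -1.96 (SE 0.048, adjusted p = 2.33e-10, edgeR). Both groups were tight, and they lay far apart. IFI35, a partner of NMI, had 17.8 and 17.0 CPM against 5.44 and 6.89 CPM, a log2 fold change of -1.41. DDX60, a helicase that aids RNA sensing, had 59.3 and 62.7 CPM against 23.1 and 29.6 CPM, a log2 fold change of -1.13, or -0.94 and not called without OE replicate 1. The RNA sensor IFIH1 (MDA5) had a log2 fold change of -0.67 (adjusted p = 0.000684, edgeR). IFI44 had 13.3 and 13.4 CPM against 4.69 and 5.80 CPM, a log2 fold change of -1.26. Its neighbour IFI44L, with 3.58 and 3.86 CPM against 1.04 and 2.34 CPM, fell by 1.07 on the log2 scale (adjusted p = 0.00978, edgeR), and by 0.57 without OE replicate 1, which ended the call. IFI6, a mitochondrial protein gene, moved the other way, from 22.6 and 25.1 CPM to 25.5 and 29.7 CPM, a log2 fold change of 0.30 (adjusted p = 0.013, edgeR).

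Among genes of membrane proteins that block viral entry or release, IFITM3 and BST2 differed in direction. IFITM3 had 105 and 107.5 CPM in parental cells and 46.0 and 52.7 CPM in ZMYND8 OE, a log2 fold change of -1.02 (SE 0.067), or -0.91 and not called without OE replicate 1. IFITM2 went from 28.8 and 25.3 CPM to 17.5 and 15.8 CPM, a log2 fold change of -0.61. For these near-identical genes, 44.3% and 35.9% of exonic 31-base sequences recur elsewhere on the primary chromosomes, so the split of reads between them is uncertain. BST2, the tetherin that holds budding virus at the cell surface, had 2.16 and 3.42 CPM against 5.49 and 9.90 CPM, a log2 fold change of 1.53 (SE 0.28, adjusted p = 0.000721, edgeR).

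SAMD9 and SAMD9L, adjacent genes of translation inhibitors on chromosome 7, both fell. SAMD9L had 119 and 113 CPM against 40.5 and 47.1 CPM, a log2 fold change of -1.32 (SE 0.073, adjusted p = 8.37e-08, edgeR). SAMD9 had 166 and 157 CPM against 90.3 and 93.4 CPM, a log2 fold change of -0.72. The antiviral ubiquitin ligase gene TRIM22 fell from 106 and 107 CPM to 39.4 and 42.2 CPM, a log2 fold change of -1.30. PARP9 and PARP14, which attach ADP-ribose, had log2 fold changes of -0.71 and -0.86, both lower by adjusted p, as were ISG15 (-0.56) and ISG20 (-0.58).

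Of the MX and viperin genes, MX2 was called higher and CMPK2, a mitochondrial nucleotide kinase gene, was higher by adjusted p. MX2, a weakly expressed inhibitor of retroviruses, had 27 and 38 counts against 73 and 94 counts, a log2 fold change of 1.34 (SE 0.28), or 0.99 and not called without OE replicate 2. CMPK2 had 7.10 and 8.35 CPM against 8.46 and 11.8 CPM, a log2 fold change of 0.47 (adjusted p = 0.0233, edgeR). MX1, with 14.7 and 15.2 CPM against 8.62 and 15.2 CPM, and RSAD2 (viperin), with 5.46 and 4.45 CPM against 4.20 and 4.87 CPM, overlapped between the groups. HERC5 had a log2 fold change of 0.28 that passed the adjusted p (0.0442, edgeR), although its groups overlapped. HERC6, USP18, XAF1 and IFITM1 did not pass it, with log2 fold changes of 0.09, -0.14, -0.10 and 0.04. Of the exonic 31-base sequences of USP18, which removes ISG15 from proteins, 68.9% recur on the primary chromosomes, and 37.5% of the exon bases of IFITM1 lie in another gene on the same strand.

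The replicates of ZMYND8 OE stood apart for these genes. Of the 38 members with enough counts, 35 were higher in OE replicate 2 than in OE replicate 1, with a median log2 ratio of 0.28, while over all genes 45.8% were higher in replicate 2 and the median ratio was -0.01. In the parental group 27 of 38 were higher in replicate 2, with a median of 0.05. Without OE replicate 1, 7 members were called lower and the median was -0.40. Marker sums moved with the comparison too. The 12 mesenchymal markers summed to 7176 and 7380 CPM in parental cells and 3022 and 2753 CPM in ZMYND8 OE, and the 12 adrenergic markers to 628 and 659 CPM against 1235 and 1267 CPM. In RNA from whole cultures, fewer cells of one kind and less RNA per cell cannot be told apart, and the part of the cell state in the result was not tested. Sums of white blood cell markers, between 0.67 and 2.68 CPM in all 8 libraries, stayed near 0, as 8 of these 12 genes had 3 counts or fewer in every library.

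**Figure D3:**
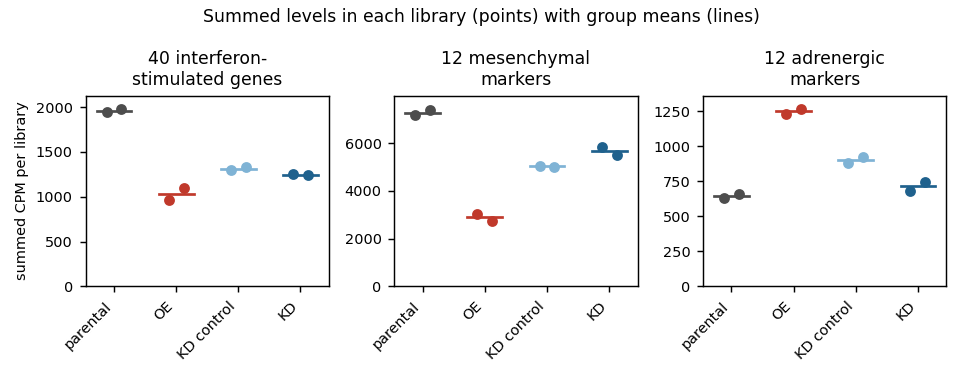
Summed CPM per library (vertical axes start at 0) of the 40 interferon-stimulated genes, 12 mesenchymal markers and 12 adrenergic markers in the 4 groups, with a point for each library and a line for the mean of 2. In ZMYND8 OE the first 2 sums are the lowest of the 4 groups and the adrenergic sum is the highest.

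In ZMYND8 knockdown nearly all of the changes that passed the adjusted p were decreases, led by IFIT genes, IFI35, IFI44L and IFITM3. Of 36 genes tested, 13 were lower by adjusted p, where 10.8% of all 19789 genes tested were, and 1 was higher, where 13.4% of all genes were. With the threshold on fold change, 1 was called lower (0.596% of all genes) and 0 higher (1.36% of all genes), by edgeR as by DESeq2, with 1 higher at an unadjusted p below 0.05 in edgeR. The median log2 fold change of the 36 was -0.24, against -0.01 over all genes. The summed level was 1294 and 1335 CPM in KD control and 1249 and 1242 CPM in ZMYND8 KD. In replicate 2 of the knockdown 17 of 38 members were higher than in replicate 1, and in replicate 2 of the control 27 of 38 were. The mesenchymal markers summed to 5038 and 5006 CPM in KD control and 5828 and 5511 CPM in ZMYND8 KD, and the adrenergic markers to 884 and 921 CPM against 681 and 748 CPM.

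The IFIT genes were again all lower by adjusted p, where 10.8% of all genes were. IFIT2 had 18.5 and 18.5 CPM in KD control and 9.93 and 10.4 CPM in ZMYND8 KD, a log2 fold change of -0.87 (SE 0.084, adjusted p = 4.98e-05, edgeR). IFIT1 had 4.57 and 6.27 CPM against 3.15 and 2.93 CPM, a log2 fold change of -0.83 (SE 0.17). IFIT3 went from 14.1 and 13.5 CPM to 9.91 and 9.26 CPM, a log2 fold change of -0.52, and IFIT5 had one of -0.32. The groups did not overlap in any of the 4 genes, which is again easily met with 2 libraries a group. Here too the share of all genes without overlap was not counted.

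IFI35, IFITM3 and PARP9 also fell in the knockdown. IFI35 had 2.38 and 2.38 CPM against 1.30 and 1.17 CPM, a log2 fold change of -0.95 (SE 0.18, adjusted p = 0.00371, edgeR). IFITM3 had 71.0 and 70.8 CPM against 43.97 and 42.9 CPM, a log2 fold change of -0.70 (adjusted p = 8.71e-06, edgeR). PARP9 had a log2 fold change of -0.54, as had IFI44. IFI44L was the 1 gene called, with 58 and 110 counts against 38 and 34 counts and a log2 fold change of -1.16 (SE 0.30, adjusted p = 0.017, edgeR). Its call rested on KD control replicate 2, without which the value was -0.67 (adjusted p = 0.2, edgeR). STAT2 fell from 119 and 117 CPM to 97.9 and 96.9 CPM, a log2 fold change of -0.28 (adjusted p = 0.00195, edgeR), and IFIH1, IFITM2 and IFI6 were lower by adjusted p with log2 fold changes between -0.39 and -0.26.

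None of the 6 genes called higher in overexpression was called in the knockdown, where OAS2 and MX2 could not be tested. Over all 19789 genes tested there, only 1.36% were called higher and 0.596% lower, so no call among so few genes says little. The log2 fold changes of OAS1, OAS3 and OASL were -0.05, -0.09 and -0.12 (SE 0.21, 0.092 and 0.23), and none passed the adjusted p. BST2 had 1.69 and 2.46 CPM against 2.21 and 2.23 CPM, groups that overlap. MX2 had 8 counts in each KD control library and 2 in each ZMYND8 KD library, a ratio per total count of 0.25 (95% interval 0.061 to 0.77, exact, counting error only). OAS2 had 0 and 7 counts against 2 and 1, a ratio of 0.43 (95% interval 0.071 to 1.87). SAMD9L was the 1 gene higher by adjusted p, with 121.5 and 126 CPM against 154 and 148 CPM, a log2 fold change of 0.29 (SE 0.051, adjusted p = 0.00225, edgeR). IFI16, at 194 and 206 CPM against 210.1 and 219.9 CPM, did not pass it (log2 fold change 0.11, adjusted p = 0.172, edgeR).

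Several genes called in another comparison missed the adjusted p in the knockdown, as did the regulators other than STAT2. IRF1 had 42.4 and 41.8 CPM against 37.5 and 41.7 CPM (log2 fold change -0.09). IRF9 had 2.10 and 1.65 CPM against 1.94 and 1.57 CPM (-0.09), and IRF7 13 and 66 counts against 8 and 33 counts (-0.88, SE 0.67). The libraries of IRF7 within a group differed by 4.84 times in KD control and by 4.14 times in ZMYND8 KD. TRIM22 had 49.0 and 47.2 CPM against 43.1 and 45.9 CPM, and DDX60 24.0 and 25.7 CPM against 21.5 and 22.8 CPM. In both genes the groups did not overlap, but neither passed the adjusted p (0.199 and 0.135, edgeR). SAMD9, at 208 and 205 CPM against 230.1 and 216 CPM, missed it too (adjusted p = 0.153, edgeR). MX1 had 2.17 and 3.48 CPM against 2.21 and 1.79 CPM, RSAD2 1.65 and 1.70 CPM against 1.66 and 1.63 CPM, and CMPK2 2.998 and 3.005 CPM against 2.32 and 2.25 CPM. The values of MX1 and RSAD2 overlapped, and those of CMPK2 did not (log2 fold change -0.39, adjusted p = 0.103, edgeR). IFITM1, with 16 and 26 counts against 13 and 9, had a log2 fold change of -0.87 (SE 0.44, adjusted p = 0.179, edgeR). Of the remaining members, ISG15, ISG20, HERC5, HERC6, USP18, XAF1 and PARP14 also missed it, with log2 fold changes between -0.27 for USP18 and 0.02 for PARP14.

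**Figure D4:**
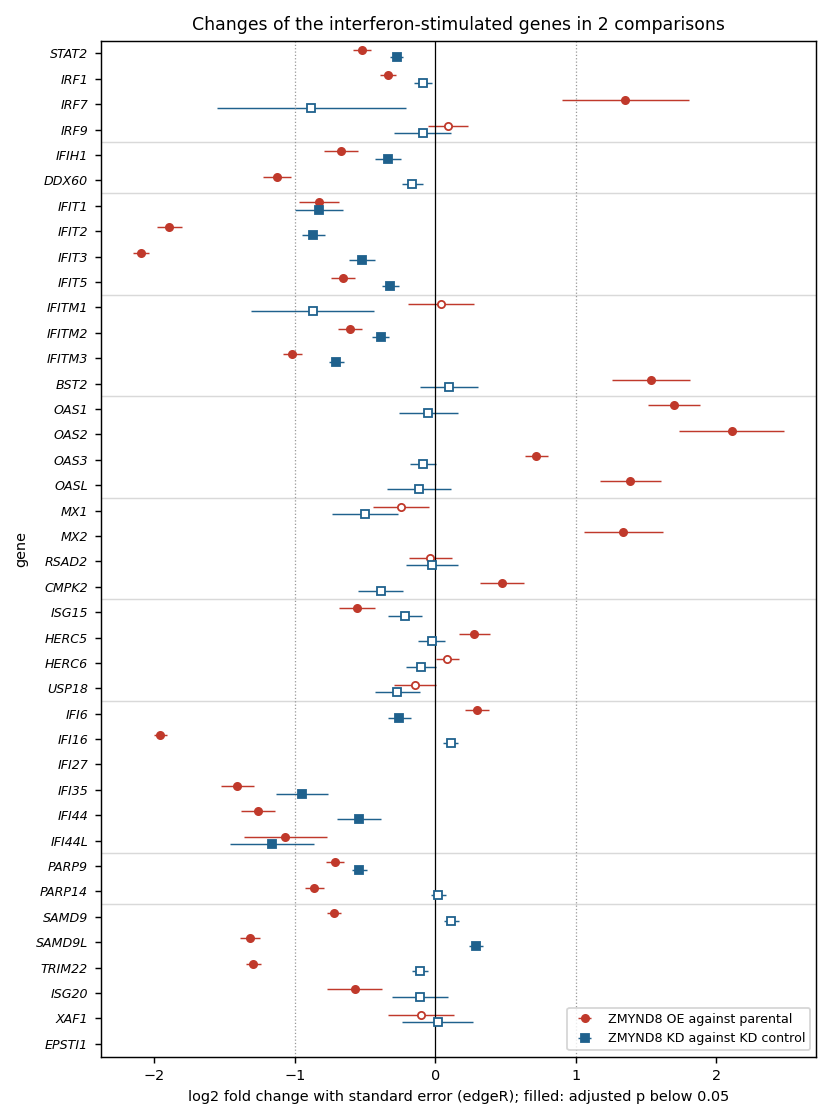
Log2 fold change (horizontal axis, bars show the standard error) of each gene in ZMYND8 OE against parental (red circles) and in ZMYND8 KD against KD control (blue squares), filled where the adjusted p was below 0.05 and with dotted lines at -1 and 1. IFIT2 and IFIT3 lie left of 0 in both, while OAS1, OASL and BST2 lie right of 1 in overexpression and close to 0 in the knockdown.

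The overexpression and knockdown comparisons share no libraries and can be set side by side. Of the 36 genes tested in both, 12 were lower by adjusted p in both (33.3%), against 817 of 18504 genes tested in both (4.42%). None was higher in both by that measure, against 536 of all genes (2.9%). Only IFI6 was higher in overexpression and lower in the knockdown, and only SAMD9L was lower in overexpression and higher in the knockdown. A log2 fold change below 0 in both was found for 20 of the 36 (55.6%), against 4085 of all genes (22.1%).

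The difference between the effects was tested in a fit over all 8 libraries. Of 38 genes, 5 were called with a more negative effect in overexpression (7.66% of all 22619 genes tested) and 4 with a more positive one (11.1% of all genes). IFI16 differed most among the former, by -2.07 on the log2 scale (SE 0.072, adjusted p = 9e-12, edgeR), and SAMD9L, IFIT3, TRIM22 and IFIT2 by -1.61, -1.58, -1.19 and -1.03. MX2 differed by 3.22, OAS1 by 1.75 (adjusted p = 0.000295, edgeR), OASL by 1.499 and BST2 by 1.44. The value of MX2 rests on 2 counts in each knockdown library and depends on how the fit treats such counts. For IFIT1 the difference was 0.00 (SE 0.18), and for IFI44L it was 0.09 (SE 0.47).

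Most of the genes were lower in KD control cells than in parental cells. Of 38 genes tested, 16 were called lower (10.8% of all 20385 genes tested) and 1 higher (10.8% of all genes), with a median log2 fold change of -0.71 against 0.00 over all genes. This comparison uses the same parental libraries as the overexpression comparison, so the decreases in both are not independent of each other. IFI35 had 17.8 and 17.0 CPM in parental cells and 2.38 and 2.38 CPM in KD control, a log2 fold change of -2.85 (SE 0.11, adjusted p = 3.45e-09, edgeR). MX1 had 14.7 and 15.2 CPM against 2.17 and 3.48 CPM, a log2 fold change of -2.39, where the overexpression value was -0.24. IFIT3 had log2 fold changes of -2.42 here and -2.09 in overexpression, and IFIT2 of -1.70 and -1.89. IFIT1, with 23.3 and 24.0 CPM against 4.57 and 6.27 CPM, had -2.11 here and -0.83 there.

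The whole MX and viperin group was called lower in KD control than in parental cells, where 10.8% of all genes were. Besides MX1, these were MX2, with 27 and 38 counts against 8 and 8, RSAD2, with 5.46 and 4.45 CPM against 1.65 and 1.70 CPM, and CMPK2, with 7.10 and 8.35 CPM against 2.998 and 3.005 CPM. IRF1 had 100.5 and 108 CPM against 42.4 and 41.8 CPM, a log2 fold change of -1.30 (SE 0.053, adjusted p = 4.53e-09, edgeR). IFITM1, with 52 and 79 counts against 16 and 26, had a log2 fold change of -1.82. DDX60, IFI44, IFI44L, TRIM22, USP18 and IRF9 had values of -1.28, -1.42, -1.23, -1.13, -1.16 and -1.07, all called. IFITM2 was the 1 gene called higher, at 28.8 and 25.3 CPM against 55.8 and 53.1 CPM, a log2 fold change of 1.02. SAMD9 was higher by adjusted p, at 166 and 157 CPM against 208 and 205 CPM, a log2 fold change of 0.37. SAMD9L, with 119 and 113 CPM against 121.5 and 126 CPM, did not pass the adjusted p here (0.0954, edgeR). Of the OAS family, OAS2 and OAS3 were lower by adjusted p. OAS2, with 24 and 33 counts against 0 and 7, had a log2 fold change of -3.17 (SE 0.66, adjusted p = 0.00133, edgeR), the lowest of all members tested, and was not called because its mean was below the minimum. OAS3 had 37.2 and 38.8 CPM against 23.8 and 28.97 CPM, a log2 fold change of -0.51 (adjusted p = 0.00025, edgeR). OAS1, OASL and BST2 did not pass the adjusted p, with log2 fold changes of -0.27, -0.21 and -0.42. The adrenergic markers summed to 628 and 659 CPM in parental cells and 884 and 921 CPM in KD control. The mesenchymal markers summed to 7176 and 7380 CPM against 5038 and 5006 CPM. Yet 6 of the 11 mesenchymal markers tested were higher and 5 lower by adjusted p, with a median log2 fold change of 0.20. Over all 20385 genes tested, 6855 were higher and 7389 lower by adjusted p. The fall of the sum thus does not hold for most of these markers. The part of both marker kinds in the result was not tested.

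Other genes of the pathway were followed in lists of ligands, receptors and kinases, nucleic acid sensors and adaptors, brakes on the signal, MHC class I presentation and other interferon-induced genes. Of 47 other interferon-induced genes tested in overexpression, 37 were lower and 2 higher by adjusted p, with 11 called lower and 2 called higher and a median log2 fold change of -0.59. Over all genes, 29.1% were lower and 31.7% higher by adjusted p, and 6.84% were called lower and 11.8% higher. The largest decreases were those of the guanylate-binding protein gene GBP2 (37.8 and 35.8 CPM against 7.49 and 8.6 CPM, log2 fold change -2.10), SP100 (-1.52), a nuclear body protein gene, and GBP3 (-1.45). GBP4 rose within the same family, from 1.99 and 2.22 CPM to 5.06 and 7.75 CPM, a log2 fold change of 1.69. SLFN11, a restriction factor, had 2 and 4 counts against 48 and 32 counts, and its mean fell to 20 or less without either OE library, which ended the call.

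Of 15 sensor and adaptor genes tested in overexpression, 11 were lower and 2 higher by adjusted p, with 4 called lower and 1 higher (over all genes 29.1% and 31.7% by adjusted p, 6.84% and 11.8% called). STING1, the adaptor of cytosolic DNA sensing, had 131 and 139 CPM in parental cells and 25.9 and 20.1 CPM in ZMYND8 OE, a log2 fold change of -2.45 (SE 0.093, adjusted p = 4.65e-09, edgeR). AIM2, a DNA sensor of the inflammasome, had a log2 fold change of -2.39, and IKBKE, a kinase upstream of IRF3, of -1.91. The factor IRF5 rose from 1.07 and 0.89 CPM to 1.89 and 2.71 CPM, a log2 fold change of 1.32. Of 8 MHC class I presentation genes tested, 6 were lower and 0 higher by adjusted p (29.1% and 31.7% of all genes) in edgeR, with 0 higher also at an unadjusted p below 0.05. The peptide trimming enzymes ERAP2 and ERAP1 had log2 fold changes of -1.61 and -1.43. HLA-C had one of -2.73, with 25 and 243 counts in the parental libraries, and was not called without parental replicate 2 (-0.54). An alternate contig repeats 95.5% of its exonic 31-base sequences.

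No receptor, kinase or brake was called in overexpression by edgeR. Of 9 receptors and kinases tested, 4 were lower and 2 higher by adjusted p, as at an unadjusted p below 0.05, counts near the shares of 29.1% and 31.7% over all genes. The receptor subunit gene IFNAR1 had a log2 fold change of -0.46 and JAK1 of -0.37, both lower by adjusted p, and TYK2 one of -0.03 (adjusted p = 0.579, edgeR). Of 11 brakes on the signal, 5 were lower and 3 higher by adjusted p, again as without adjustment and beside the same shares over all genes. Of 11 retinoic acid targets, which respond to the agent all groups received, 4 were called higher and 1 lower in overexpression (11.8% and 6.84% of all genes). The log2 fold changes of the 11 ranged from -2.61 to 7.89. CYP26A1, which degrades retinoic acid, had 38.8 and 40.4 CPM in parental cells and 1082 and 1139 CPM in ZMYND8 OE.

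In the knockdown, 2 genes of the 6 lists were called higher and 3 lower. Of the 47 other interferon-induced genes tested, 10 were lower and 6 higher by adjusted p, with 2 called lower and 1 higher and a median of 0.04. Over all genes 10.8% were lower and 13.4% higher by adjusted p, and 0.596% were called lower and 1.36% higher, so the share of this list that was higher was near that of all genes. LY6E was called lower, but it had 55 and 448 counts in KD control, and its log2 fold change of -2.41 became -0.28 (adjusted p = 0.601, edgeR) without KD control replicate 2. An alternate contig repeats 100% of the exonic 31-base sequences of LY6E. IDO1 (36 and 36 counts against 9 and 16) and TNFSF10 (15 and 15 against 25 and 38) each lost their call when single libraries were left out. IFNGR2, a chain of the interferon gamma receptor, was called lower among 9 receptors and kinases, with 11.0 and 10.7 CPM against 4.33 and 3.24 CPM and a log2 fold change of -1.51 (SE 0.14). An alternate contig repeats 91.9% of its exonic 31-base sequences. Of the sensors, 3 were lower and 1 higher by adjusted p, and of the brakes 1 was lower and 2 were higher, beside the same shares over all genes. Of the MHC class I genes 2 were higher and 0 lower by adjusted p (1 lower at an unadjusted p below 0.05), with HLA-C called higher (log2 fold change 1.15), or 0.97 and not called without KD control replicate 2.

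**Figure D5:**
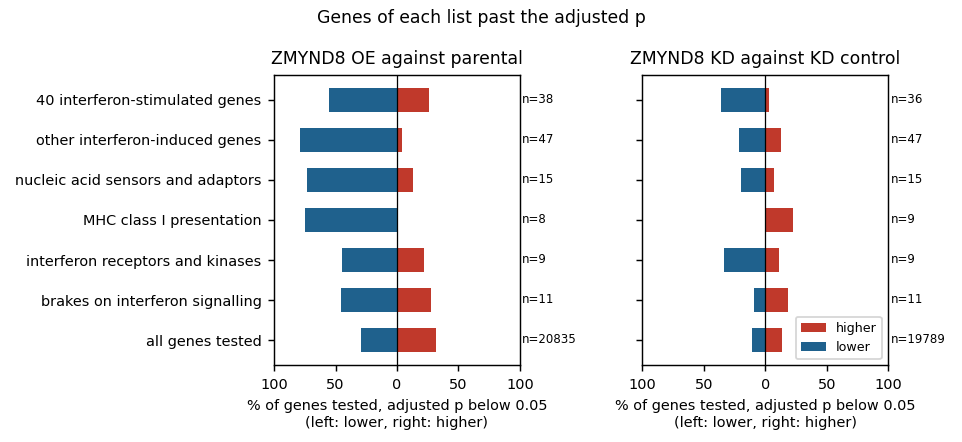
Share of the genes tested in each list (n at the right) with an adjusted p below 0.05, lower to the left and higher to the right, in ZMYND8 OE against parental and in ZMYND8 KD against KD control. In overexpression the bars of other interferon-induced genes (37 of 47), MHC class I genes (6 of 8) and sensors (11 of 15) reach furthest to the left, while in the knockdown the 40 genes have 13 of 36 to the left and 1 to the right.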

How the data were processed

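RNA from 8 SK-N-SH libraries was sequenced in paired ends. The authors trimmed the reads with Trim_Galore, aligned them with HISAT2 to GRCh38 (hg38 per the labels) and deposited raw counts per gene from featureCounts. The annotation is named as GENCODE, tool versions were not given in the sources used here, and neither was the strand setting, so that overlapping genes on opposite strands may share counts.

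The counts were tested with edgeR 4.0.16 (quasi-likelihood test, filterByExpr, TMM scaling, two-sided, Benjamini-Hochberg adjustment over all genes tested), with limma 3.58.1 in R 4.3.3, and each comparison used its own 4 libraries. The difference between effects used all 8. The standard error is the absolute log2 fold change divided by the square root of F. CPM used TMM factors over 8 libraries, and TPM the exon length. With 2 libraries a group, p-values rest on a spread that edgeR shares across genes. The fits were also run on simulated counts with known changes, and the outcome is not given here. The simulation used the same spread for all genes and changed only genes with ample counts. It does not cover weakly expressed members or replicates as uneven as those of ZMYND8 OE. Python 3.11.15, pandas 2.3.3 and scipy 1.17.1 were used for summaries. Repeated sequence was counted as exonic 31-base sequences that recur in the genome. The columns hold counts only, without the authors' own comparisons.

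Members and lists were chosen with earlier results of these data known. Values in every library are given for 4 regulators and for members called in any comparison (the 12 with the largest change where more were called). They are also given for members whose replicates differed by over 2 times and the 5 with the highest TPM. Of each other interferon pathway list, up to 3 of the largest increases and decreases called are named. Of the retinoic acid targets only CYP26A1 is named. Genes named beside these complete a family or a count and were chosen after their values were seen. Alternatives were RLE and upper quartile scaling, no filter on low counts, DESeq2 1.42.0, all 8 libraries in 1 fit, a replicate block, other call thresholds, leaving out each library and leaving out genes with repeated sequence.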

Additional observations from a re-analysis of the deposited data

Results flagged for a closer look

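The test of the difference between the overexpression and knockdown effects called 9 of 38 genes, 5 more negative in overexpression and 4 more positive. Over all 22619 genes tested, 7.66% and 11.1% were called in these directions. The share of positive calls was thus near that of all genes. The effect was more negative in overexpression for IFI16 (-2.07 on the log2 scale), SAMD9L (-1.61), IFIT3 (-1.58), TRIM22 (-1.19) and IFIT2 (-1.03). It was more positive for BST2 (1.44), OASL (1.499), OAS1 (1.75) and MX2 (3.22), the last resting on 2 counts in each knockdown library. The experiments also differ in virus and Dox, which cannot be told apart from the direction of the ZMYND8 change in this difference.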

How the results depend on the processing

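Without thresholds on fold change and mean, the members called became 10 higher and 21 lower in overexpression, 1 higher and 13 lower in the knockdown, 2 higher and 30 lower between the controls, and 20 in the difference of effects. By adjusted p alone, 31.7% of all genes were higher and 29.1% lower in overexpression, and 13.4% and 10.8% in the knockdown. Between the controls 6855 and 7389 of 20385 genes were, and in the difference 5569 and 5512 of 22619. With a mean above 100 normalised counts, 2 members were called higher in overexpression and 0 lower in the knockdown. The latter was also 0 with no filter on low counts. With trends over gene length and GC content removed, an alternative chosen after seeing the data, the controls differed by a median of -0.83 with 2 called higher, and IRF9 in overexpression turned to -0.025. Leaving out each library gave 7 to 11 called lower in overexpression with medians of -0.59 to -0.40, 0 to 2 called lower in the knockdown, and, of the other interferon-induced genes, 1 to 2 called higher in overexpression and 0 to 1 higher and 0 to 3 lower in the knockdown. Over the same settings IRF7 ranged from -2.23 to 0.66 in the knockdown and from -0.48 to 1.78 between the controls, turning its sign without KD control replicate 2, and IRF9 in the knockdown from -0.26 to 0.086, turning its sign without KD control replicate 1 (0.086) or knockdown replicate 2 (0.056). Of the other interferon-induced genes, 1 was called higher in overexpression in 1 fit of all 8 libraries. In the knockdown 0 were called higher in that fit, with DESeq2 and with no filter, and 0 (DESeq2) and 1 (no filter) lower. The cause of these changes was not tested. For the other settings here the share of all genes called is not given. A change among the members cannot be told there from a change among all calls.

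The replicate numbers did not pair the samples by their deviations (r = 0.071 for parental and OE, 0.15 for KD control and KD), and with the replicate block 10 members were called lower in overexpression, 1 lower in the knockdown and 11 in the difference. Over all genes the block gave 1427 of 20835 called lower in overexpression and 126 of 19789 in the knockdown. In the difference it gave 4255 of 22619 called. Between the controls (r = -0.10), crossing the numbers in the block gave 16 members lower and 1 higher, as the main fit did. Over all 20385 genes it gave 2201 lower and 2203 higher. With 2 libraries a group, weakly expressed genes such as OAS2, MX2 and IRF7 rest on few counts.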
